A study of Mus musculus with 12 samples.

Results

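The hypoxia-linked secreted factors described here are the products of Vegfa, Vegfb, Adm and Stc2, 4 of the 46983 genes in the read-count table. They were taken as the rows whose Ensembl identifier maps to these 4 symbols in the mouse annotation. The symbols were chosen with earlier results of these data known. B cells were pulled from mouse bone marrow with magnetic beads and their RNA was sequenced, in order to find the genes that HIF-1α regulates in these cells. There were 4 groups of 3 libraries: HIF1a KO cells under hypoxia, WT cells under hypoxia, HIF1a KO cells under normoxia and WT cells under normoxia. Per the study, hypoxia and normoxia were conditions in which the isolated cells were cultured, not states of the mouse. In the study's methods, conditional knockouts came from Hif1a f/f mice bred with Mb1-cre, a line that expresses Cre from the Cd79a locus and so deletes in the B lineage, and control littermates were Cre-negative or Mb1 cre/+. The labels call the controls WT and do not say which of these were used, give no age, and do not say whether each library is its own mouse, so the spread between libraries behind the p-values may in part be technical. In WT it does not come from a single mouse, since libraries 1 and 2 differ from library 3 in sex-linked reads.

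HIF-1α is a transcription factor subunit whose stability depends on oxygen. In normal oxygen it is hydroxylated and degraded, and under hypoxia it is stable, pairs with HIF-1β and binds DNA at a core written ACGTG or GCGTG, the hypoxia response element. Secreted products of HIF target genes carry the signal of low oxygen out of the cell, the best known being VEGF-A, which drives the growth of blood vessels toward tissue that lacks oxygen.

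Total counts ran from 27629175 to 36880082 per library, and 17506 genes passed the filter on low counts and were tested, all 4 secreted factors among them. Levels are given as CPM, the counts of a gene relative to the library total, scaled with TMM factors. A gene was called when its adjusted p in the edgeR quasi-likelihood test was below 0.05, with Benjamini-Hochberg correction over all tested genes. Cd79a, which the Cre insertion disrupts on 1 allele, was lower in KO than in WT, at -0.93 ± 0.10 (log2 ± SE) under hypoxia and -1.02 ± 0.10 under normoxia, both called with edgeR. In fold, KO stood at 0.524 of WT under hypoxia and 0.495 under normoxia. Mb1 cre/+ controls would carry the same disrupted allele, so by these values the WT libraries read as Cre-negative. KO against WT then also differs by Cre and by 1 Cd79a allele, and their part was not tested. Hif1a counts cover the whole gene, including exons outside the deleted part, and were 0.46 ± 0.10 (log2) higher in KO under hypoxia, so they do not check the deletion. B cell markers were all detected, with summed levels of 6280 to 6623 CPM in KO hypoxia, 6890 to 7716 CPM in WT hypoxia, 7233 to 7976 CPM in KO normoxia and 7860 to 9250 CPM in WT normoxia. Markers of monocytes and neutrophils were present in every library too. WT libraries 1 and 2 of both conditions held Y-linked reads and almost no Xist, KO hypoxia library 1 held both, and the other libraries held Xist alone. Thus 5 of 6 KO libraries held Xist alone and 4 of 6 WT libraries held Y-linked reads in its place, so that genotype and sex cannot be fully told apart in KO against WT and in the interaction.

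The bases before each annotated start are printed because the secreted factors are compared by their response to HIF-1α loss, and HIF binds DNA at the core searched for here. RefSeq (GRCm38.p6) gives a window of 300 bases for each start, 250 before it and 50 after it, and all 4 genes matched. ACGTG and GCGTG were searched on both strands, and matches are in capitals, which show CACGT or CACGC where the match lies on the other strand. The 250 bases before the start are shown 5′ to 3′ on the strand of the gene.
Vegfa (chr17:46032378-46032627, minus strand): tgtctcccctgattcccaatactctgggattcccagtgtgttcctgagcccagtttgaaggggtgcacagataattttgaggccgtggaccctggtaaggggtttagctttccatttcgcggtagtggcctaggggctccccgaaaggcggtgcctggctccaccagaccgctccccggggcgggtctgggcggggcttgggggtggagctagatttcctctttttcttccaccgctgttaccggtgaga
Vegfb (chr19:6987652-6987901, minus strand): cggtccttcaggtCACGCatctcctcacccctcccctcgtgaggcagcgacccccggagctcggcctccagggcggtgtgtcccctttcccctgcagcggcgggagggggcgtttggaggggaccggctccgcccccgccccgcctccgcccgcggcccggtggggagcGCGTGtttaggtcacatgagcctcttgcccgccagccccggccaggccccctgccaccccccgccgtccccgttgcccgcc
Adm (chr7:110627407-110627656, plus strand): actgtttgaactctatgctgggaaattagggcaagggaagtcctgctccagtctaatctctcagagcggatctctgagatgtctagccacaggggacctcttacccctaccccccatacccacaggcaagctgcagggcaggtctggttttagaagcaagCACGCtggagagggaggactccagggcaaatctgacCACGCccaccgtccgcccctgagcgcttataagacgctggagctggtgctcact
Stc2 (chr11:31370062-31370311, minus strand): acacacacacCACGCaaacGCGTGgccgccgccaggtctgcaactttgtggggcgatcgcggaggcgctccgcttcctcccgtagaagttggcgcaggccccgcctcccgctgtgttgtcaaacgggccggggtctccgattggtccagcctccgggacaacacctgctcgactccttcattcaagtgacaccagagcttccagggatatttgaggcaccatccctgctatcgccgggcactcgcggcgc
No core was found in the window of the main Vegfa start. Vegfb, Adm and Stc2 each held 2 GCGTG matches and no ACGTG. The Vegfb matches begin 237 and 81 bases before the start, the Adm matches 90 and 54 bases before it, and the Stc2 matches 240 and 231 bases before it. An internal Vegfa start, for which the window is chr17:46025114-46025413, held 2 matches, GCGTG at 218 and ACGTG at 211 bases before it. Among the 32851 promoter windows of this length, 43.8% held at least 1 of the cores and 20.6% held at least 2. These matches describe letters in a short window and say nothing of binding.

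Vegfa encodes VEGF-A, the main growth factor for blood vessels, and lies on chromosome 17 (46016993 to 46032369, minus strand). In KO hypoxia libraries 1, 2 and 3 it had 104, 98.05 and 119.9 CPM, and in WT hypoxia libraries 298.1, 257.2 and 242.8 CPM. In KO normoxia libraries it had 26.55, 28.52 and 27.14 CPM, and in WT normoxia libraries 25.86, 24.15 and 35.76 CPM. Every hypoxia library stood above every normoxia library, and the 3 WT hypoxia libraries stood above the 3 KO hypoxia libraries. Both normoxia groups overlapped. The means were 107 ± 11.3 CPM in KO hypoxia, 266 ± 28.7 CPM in WT hypoxia, 27.4 ± 1.01 CPM in KO normoxia and 28.6 ± 6.27 CPM in WT normoxia (SD, n = 3 each).

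Hypoxia raised Vegfa in both genotypes. The response was 3.92-fold in KO (log2 1.97 ± 0.14, SE, edgeR adjusted p = 4.97e-07) and 9.29-fold in WT (log2 3.22 ± 0.14, edgeR adjusted p = 1.58e-08). Ordered from the most raised to the most lowered log2 change, this was rank 454 of the 17506 tested genes in KO and rank 48 in WT. Between WT libraries of the same number, hypoxia over normoxia came to 11.5, 10.7 and 6.79, the smallest being that of the number 3 libraries, where the normoxia level was highest. On the log2 scale the KO response was 61.2% of the WT response.

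The response of Vegfa was smaller in KO than in WT. Under hypoxia Vegfa was lower in KO than in WT, at 0.403 of the WT level (log2 -1.31 ± 0.13, 95% interval -1.59 to -1.03, edgeR adjusted p = 0.000132). Under normoxia the difference was -0.06 ± 0.13 (95% interval -0.35 to 0.23, adjusted p = 0.892). The interaction (response in KO less response in WT) was -1.25 ± 0.19 (95% interval -1.65 to -0.84, adjusted p = 0.0134). Its call was lost without KO hypoxia library 1 (-1.20, adjusted p = 0.0627), without WT hypoxia library 1 (-1.13, adjusted p = 0.0537) or without WT normoxia library 1 (-1.18, adjusted p = 0.0564). It was -0.77 (adjusted p = 0.776) when the fit was limited to the 7 libraries that held Xist but no Y-linked reads, where WT was left with 1 library in each condition and is assumed to vary like KO. With monocyte and neutrophil levels as covariates it was -1.26 (adjusted p = 0.0263).

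**Figure D1:**
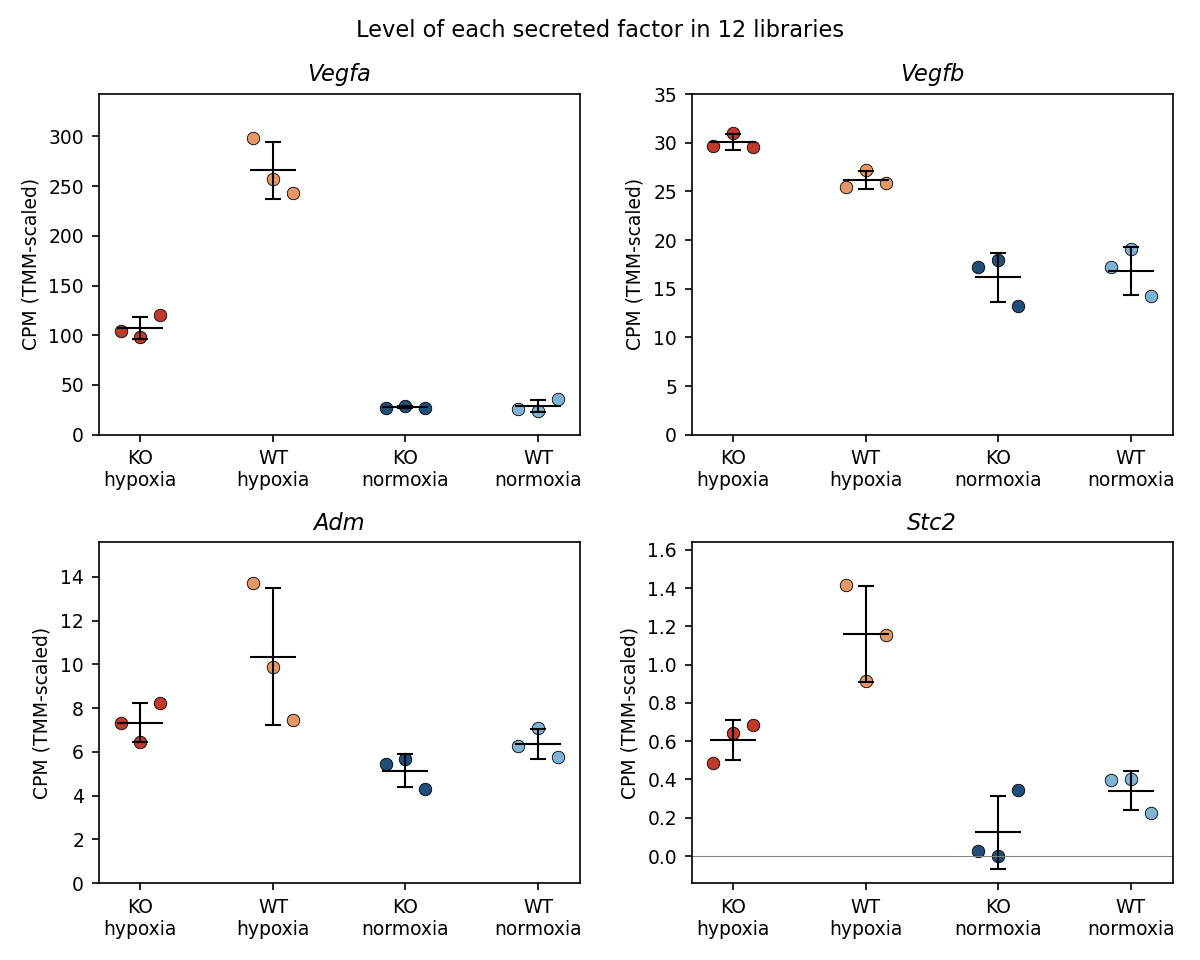
Level of each secreted factor in the 12 libraries, in TMM-scaled CPM, with 1 panel for each gene and its own linear axis. Points are libraries, bars the mean and SD of 3. All 4 genes had every hypoxia library above every normoxia library of the same genotype, and for Vegfa alone the KO hypoxia libraries (98.05 to 119.9 CPM) were called lower than the WT hypoxia libraries (242.8 to 298.1 CPM).

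Vegfb encodes VEGF-B, a ligand of VEGF receptor 1 linked to the heart and to fatty acid uptake more than to vessel growth. It lies on chromosome 19 (6982473 to 6987651, minus strand). Its levels were 29.65, 30.99 and 29.58 CPM in KO hypoxia libraries 1, 2 and 3, and 25.48, 27.17 and 25.87 CPM in WT hypoxia libraries. They were 17.28, 17.97 and 13.23 CPM in KO normoxia libraries, and 17.21, 19.05 and 14.24 CPM in WT normoxia libraries. Both hypoxia groups stood apart from both normoxia groups, and the genotypes overlapped under normoxia alone. Library 3 was the lowest of both normoxia groups. The means were 30.1 ± 0.795 CPM in KO hypoxia, 26.2 ± 0.885 CPM in WT hypoxia, 16.2 ± 2.56 CPM in KO normoxia and 16.8 ± 2.43 CPM in WT normoxia (SD, n = 3 each).

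Vegfb also rose in both genotypes, by a smaller factor than Vegfa. The response was 1.86-fold in KO (log2 0.90 ± 0.13, edgeR adjusted p = 0.000159) and 1.56-fold in WT (log2 0.64 ± 0.13, edgeR adjusted p = 0.00212). The 3 KO hypoxia libraries lay above the 3 WT hypoxia libraries, but the difference did not pass the test (log2 0.20 ± 0.12, 95% interval -0.07 to 0.47, adjusted p = 0.343). Neither did the difference under normoxia (-0.06 ± 0.13, adjusted p = 0.897) or the interaction (0.26 ± 0.18, 95% interval -0.13 to 0.64, adjusted p = 0.696). The interval of the interaction does not reach the size of the Vegfa interaction. The 2 intervals come from the same libraries, and the difference between the genes was not tested. In the fit of those 7 libraries the WT response was 0.85 and no longer called (adjusted p = 0.066).

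The balance of both VEGF genes can be read within a library, as counts per kilobase of exon. The Vegfa to Vegfb ratio was 1.315, 1.185 and 1.518 in KO hypoxia libraries, 4.383, 3.545 and 3.514 in WT hypoxia libraries, 0.5755, 0.5944 and 0.7687 in KO normoxia libraries and 0.5626, 0.4748 and 0.9408 in WT normoxia libraries. Under normoxia Vegfb was thus the higher of the pair per length in all 6 libraries, and under hypoxia Vegfa was the higher in all 6. The means were 1.34 ± 0.17 in KO hypoxia, 3.81 ± 0.49 in WT hypoxia, 0.646 ± 0.107 in KO normoxia and 0.659 ± 0.248 in WT normoxia (SD, n = 3 each), given as a description. This order depends on dividing by exon length, since on raw counts Vegfa exceeded Vegfb in every library.

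**Figure D2:**
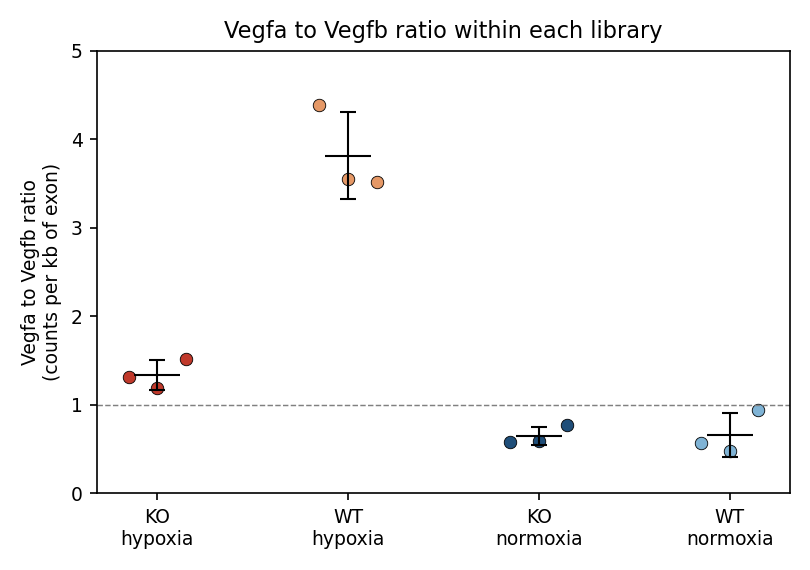
Vegfa to Vegfb ratio in each library, from counts per kilobase of merged exon length, by group. Points are libraries, bars the mean and SD of 3, and the dashed line marks equal levels. All 6 normoxia libraries lie below the line and all 6 hypoxia libraries above it, with WT hypoxia (mean 3.81) above KO hypoxia (mean 1.34).

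Adm encodes adrenomedullin, a peptide that widens vessels and tightens the endothelial barrier, and lies on chromosome 7 (110627661 to 110629820, plus strand). An antisense gene, Gm28863, overlaps it without sharing exon bases and had 0 to 4 counts per library. Adm had 7.327, 6.449 and 8.228 CPM in KO hypoxia libraries 1, 2 and 3, and 13.7, 9.891 and 7.458 CPM in WT hypoxia libraries. It had 5.443, 5.691 and 4.282 CPM in KO normoxia libraries, and 6.257, 7.086 and 5.756 CPM in WT normoxia libraries. WT hypoxia was the most spread of the groups, with library 1 the highest and library 3 within the range of KO hypoxia. KO hypoxia also overlapped WT normoxia. The means were 7.34 ± 0.890 CPM in KO hypoxia, 10.4 ± 3.15 CPM in WT hypoxia, 5.14 ± 0.752 CPM in KO normoxia and 6.37 ± 0.672 CPM in WT normoxia (SD, n = 3 each).

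Under hypoxia the change of Adm in KO was 1.43-fold and did not pass the edgeR test (log2 0.51 ± 0.21, 95% interval 0.07 to 0.96, adjusted p = 0.0766), although the 3 KO hypoxia libraries lay above the 3 KO normoxia libraries. In WT it rose, by 1.63-fold (log2 0.70 ± 0.20, edgeR adjusted p = 0.0207). The interaction was -0.19 ± 0.29 (95% interval -0.81 to 0.43, adjusted p = 0.889), so the responses were not shown to differ between the genotypes. KO stood at -0.50 ± 0.20 to WT under hypoxia (95% interval -0.93 to -0.06, adjusted p = 0.143) and at -0.31 ± 0.21 under normoxia (adjusted p = 0.667). Under normoxia the 3 KO libraries lay below the 3 WT libraries by a narrow gap, 5.691 CPM being the highest KO value and 5.756 CPM the lowest WT value.

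The Adm calls changed with settings and with single libraries. The WT response was not called in a fit of only the compared groups (0.71, adjusted p = 0.0518) or of the 7 libraries that held Xist but no Y-linked reads (0.36, adjusted p = 0.562). It was 0.43 (adjusted p = 0.129) without WT hypoxia library 1, 0.68 (adjusted p = 0.0666) without WT normoxia library 1 and 0.62 (adjusted p = 0.0609) without WT normoxia library 3. In KO it was called when WT hypoxia library 1 was left out (0.53, adjusted p = 0.038), when WT hypoxia library 3 was left out (0.53, adjusted p = 0.0364) and in a fit of only the compared groups (0.50, adjusted p = 0.0369). Under hypoxia KO was called lower than WT without WT hypoxia library 3 (-0.66, adjusted p = 0.0441).

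Stc2 encodes stanniocalcin-2, a secreted glycoprotein that inhibits the protease PAPP-A and so limits the release of IGF from its binding proteins. It lies on chromosome 11 (31357307 to 31370074, minus strand) and was the rarest of the secreted factors. It had 16, 20 and 21 counts in KO hypoxia libraries 1, 2 and 3, and 42, 26 and 35 counts in WT hypoxia libraries. It had 1, 0 and 10 counts in KO normoxia libraries, and 11, 13 and 8 counts in WT normoxia libraries. The 0 in KO normoxia library 2 allows up to 3.689 counts (upper bound of the exact Poisson 95% interval, counting error only). Both hypoxia groups stood above both normoxia groups, WT hypoxia stood above KO hypoxia, and KO normoxia library 3 lay within the WT normoxia range.

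As CPM, Stc2 averaged 0.606 ± 0.104 in KO hypoxia, 1.16 ± 0.251 in WT hypoxia, 0.124 ± 0.192 in KO normoxia and 0.341 ± 0.103 in WT normoxia (SD, n = 3 each). It rose under hypoxia in KO (log2 2.30 ± 0.74, edgeR adjusted p = 0.0318). In WT the change was 1.77 ± 0.63, just outside the threshold (95% interval 0.41 to 3.13, adjusted p = 0.0516). The interaction was 0.53 ± 0.95 (95% interval -1.53 to 2.59, adjusted p = 0.908), an interval wide enough to hold the size of either response. It was 3.24 (adjusted p = 0.191) without KO normoxia library 3 and 0.0136 (adjusted p = 0.997) without KO normoxia library 2. KO stood at -0.94 ± 0.60 to WT under hypoxia (adjusted p = 0.355) and at -1.47 ± 0.78 under normoxia (adjusted p = 0.598).

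The Stc2 calls changed with settings and with single libraries. The WT response was called with RLE size factors (1.80, adjusted p = 0.0488), with no filter (1.78, adjusted p = 0.0205), with only the compared groups (1.78, adjusted p = 0.011) and with DESeq2 (1.81, adjusted p = 0.0151). It was also called, as 1.75, 1.75 and 1.76, without KO normoxia library 1, 2 or 3 (adjusted p = 0.041, 0.0302 and 0.0054). The KO response lost its call with only the compared groups (2.29, adjusted p = 0.0705), without KO hypoxia library 1, 2 or 3 (2.44, 2.27 and 2.22, adjusted p = 0.0508, 0.0656 and 0.0771), and without KO normoxia library 1 or 2 (1.80 and 1.77, adjusted p = 0.112 and 0.0839). Without KO normoxia library 3, the only one of its group with more than 1 count, the KO response was 4.99 (adjusted p = 0.000473), and KO was called lower than WT under normoxia (-4.15, adjusted p = 0.0315).

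Set side by side, 3 of the 4 secreted factors were called higher under hypoxia in KO (Vegfa, Vegfb and Stc2), where 14.5% of all tested genes were called higher. In WT 3 of the 4 were called higher (Vegfa, Vegfb and Adm), where 11.4% of all tested genes were. All 4 had hypoxia libraries above the normoxia libraries in KO, as did 24.1% of tested genes, and in WT, as did 19.5% of tested genes. KO against WT under hypoxia called 1 of the 4, Vegfa, as lower, where 5.12% of tested genes were lower and 4.72% higher, and the groups did not overlap for 3 of the 4 (Vegfa, Vegfb and Stc2), where 31.7% of tested genes did not. Under normoxia none of the 4 was called, where 0.0228% of tested genes were (4 genes by edgeR, and 94 by DESeq2). Of the 4 factors 0 had an unadjusted p under 0.05 there and DESeq2 called 0, and Adm alone did not overlap, where 12.5% of tested genes did not. The interaction called 1 of the 4, Vegfa, where 0.417% of tested genes were called in either direction. Compared per kilobase of exon, the order of mean levels under hypoxia in KO was Vegfa (25.04 CPM per kb), Vegfb (18.7), Adm (4.53) and Stc2 (0.117), and in WT the same with 62.1, 16.3, 6.39 and 0.225 CPM per kb.

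**Figure D3:**
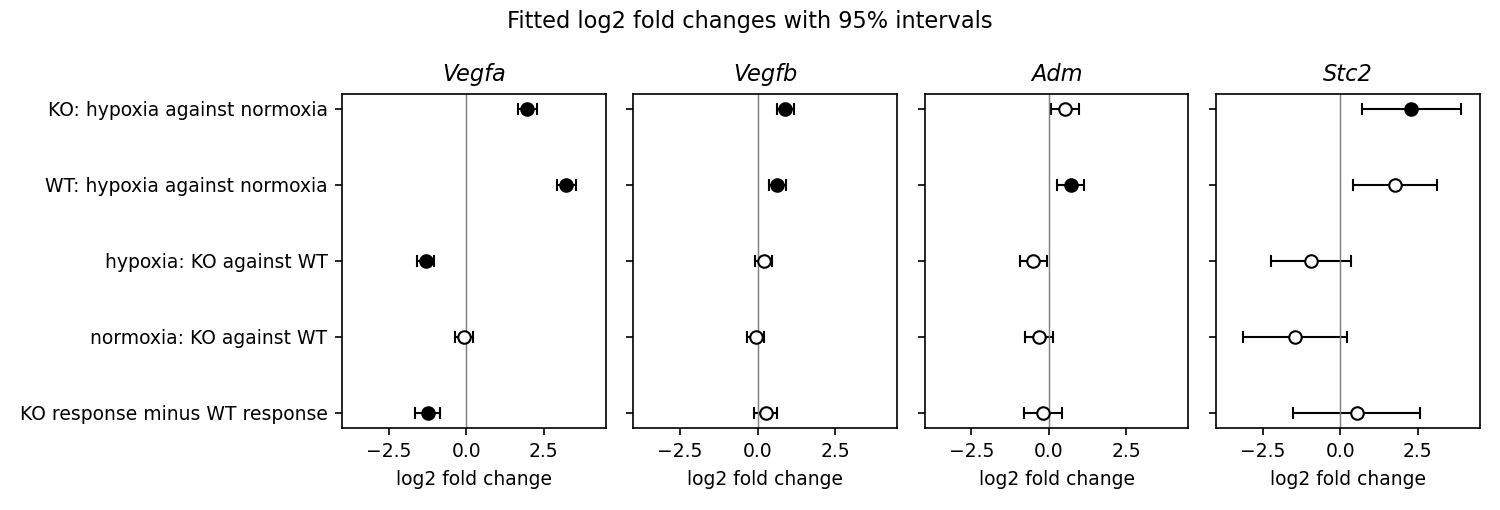
Fitted log2 fold changes of the secreted factors in the 5 comparisons, with 95% intervals from the edgeR fit over 12 libraries. Filled points were called and open points were not. The Vegfa interval for the KO response minus the WT response (-1.65 to -0.84) lies below 0, and those of Vegfb, Adm and Stc2 cross it.

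Markers of other cells differed between the groups in part. Summed monocyte and macrophage markers ran from 1369 to 2149 CPM in KO hypoxia, 2158 to 2876 CPM in WT hypoxia, 1659 to 2223 CPM in KO normoxia and 2263 to 2702 CPM in WT normoxia, with all 10 markers detected in every library. Under hypoxia 3 of the 10 were called lower in KO than in WT, as were 0 of 10 neutrophil markers and 5.12% of all tested genes. The neutrophil markers all had negative values there (log2 -0.76 to -0.50). In the response to hypoxia, 4 monocyte markers were called higher and 4 lower in KO, and 2 higher and 3 lower in WT. For neutrophil markers it was 3 higher and 0 lower in KO, and 2 higher and 0 lower in WT. Of all tested genes, 14.5% were called higher and 15.7% lower in KO, and 11.4% and 16.3% in WT. Summed neutrophil markers ran from 2803 to 4051 CPM in KO hypoxia, 3523 to 6407 CPM in WT hypoxia, 1180 to 3965 CPM in KO normoxia and 2449 to 5130 CPM in WT normoxia. WT hypoxia library 1, the highest for Vegfa and Adm, was the lowest of its group for both marker sums. By mean log2 CPM of the monocyte markers, library 2 was the lowest (5.696, against 5.786 in library 1). Library 1 was also the highest of its group for the erythroid sum (355.3 CPM). These values rest on single libraries and are given as a description. With both marker levels as covariates Vegfa was called lower in KO under hypoxia (-1.18 ± 0.18, edgeR adjusted p = 0.00995), and Stc2 in KO lost its call (2.29, adjusted p = 0.0736). The marker levels are partly tied to group, since the monocyte sums of KO and WT under hypoxia did not overlap. That fit therefore cannot settle the part of those cells. Summed megakaryocyte markers ran from 29.38 to 64.1 CPM in KO hypoxia and 18.51 to 75.81 CPM in KO normoxia. In WT they ran from 54.21 to 77.92 CPM under hypoxia and 27.11 to 39.63 CPM under normoxia, without overlap. None of the 6 was called in any comparison. Erythroid sums ran from 172.5 to 714.9 CPM in KO hypoxia and 84.41 to 355.3 CPM in WT hypoxia. Under normoxia they ran from 159.8 to 2747 CPM in KO and 194.7 to 326.3 CPM in WT. The 2747 CPM came from KO normoxia library 1, beside 663.3 CPM in library 2 and 159.8 CPM in library 3. Neither list was a covariate, and its part in the Vegfa levels was not tested. In bulk RNA, fewer cells of a type and less RNA per cell cannot be told apart.

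The receptors and sister ligands of VEGF did not follow Vegfa as a group. Of 8 genes, all tested, 0 were called higher and 2 lower under hypoxia in KO (by edgeR and by DESeq2), and 1 was called higher and 2 lower in WT. Of all tested genes, 14.5% were called higher and 15.7% lower in KO, and 11.4% higher and 16.3% lower in WT. The median log2 change was -0.17 in KO and 0.03 in WT, beside 0.04 in KO and 0.01 in WT over all tested genes. Kdr, which encodes VEGF receptor 2, the main signalling receptor for VEGF-A on endothelium, fell by 3.86 ± 0.39 in KO and by 3.33 ± 0.38 in WT on the log2 scale. It averaged 6.47 ± 0.679 CPM in KO hypoxia, 8.26 ± 3.91 CPM in WT hypoxia, 94.1 ± 10.3 CPM in KO normoxia and 83.3 ± 31.7 CPM in WT normoxia. Flt4, which encodes the receptor for VEGF-C and VEGF-D, fell by 2.30 ± 0.38 in KO and by 2.25 ± 0.38 in WT. Plasmacytoid dendritic cell markers moved the same way, with 5 of 6 called lower under hypoxia in KO and 4 of 6 in WT. All 6 were detected in every library, and summed they ran from 1045 to 1096 CPM in KO hypoxia, 1173 to 1424 CPM in WT hypoxia, 1897 to 2168 CPM in KO normoxia and 1944 to 2047 CPM in WT normoxia. Of 9 stromal and endothelial markers, a list that holds Kdr itself, 8 were tested, of which 3 were called lower under hypoxia in KO (with 3 higher) and 3 in WT (with 2 higher). The lower ones included the endothelial genes Pecam1 (-0.65 ± 0.08 in KO and -0.35 ± 0.08 in WT, log2) and Cdh5 (-1.06 ± 0.11 in KO and -0.67 ± 0.11 in WT). The endothelial gene Tek, rare in every library, was not called (1.17 ± 0.48 in KO and 0.09 ± 0.50 in WT). Col1a2 and Pdgfrb were called higher in both genotypes, and Col1a1 in KO alone. Pecam1 had the highest level of the list, at 176 CPM in KO hypoxia, 217 CPM in WT hypoxia, 275 CPM in KO normoxia and 276 CPM in WT normoxia. With Kdr in the sum, the list ran from 199.5 to 207.9 CPM in KO hypoxia, 227.7 to 272.6 CPM in WT hypoxia, 390.3 to 416.1 CPM in KO normoxia and 365.7 to 411 CPM in WT normoxia, with 1 marker at 0 in WT normoxia. Of 8 T and NK cell markers, 3 were called lower in KO and 2 in WT, and the list ran from 52.91 to 64 CPM in KO hypoxia, 70.64 to 85.04 CPM in WT hypoxia, 210.4 to 229 CPM in KO normoxia and 192.9 to 254.9 CPM in WT normoxia. Most of this sum came from Cd4 and Cd8a, the markers called in both genotypes. Cd4 averaged 30.2 CPM in KO hypoxia, 40.2 CPM in WT hypoxia, 146 CPM in KO normoxia and 135 CPM in WT normoxia. Cd3d was called in KO alone. Cd3e (0.43 ± 0.38 in KO and 0.72 ± 0.36 in WT) and Klrb1c (0.37 ± 0.30 in KO and 0.18 ± 0.30 in WT) had positive values and were not called. The part of these cells in the falls of Kdr and Flt4 was not tested.

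Flt1, which encodes VEGF receptor 1 and binds both VEGF-A and VEGF-B, had a log2 change under hypoxia of 0.28 ± 0.40 in KO (edgeR adjusted p = 0.641) and rose by 1.90 ± 0.40 in WT (adjusted p = 0.00348). The interaction did not pass the test (-1.62 ± 0.57, adjusted p = 0.314), and the gene was rare, at 0.506 ± 0.126 CPM in KO hypoxia and 1.06 ± 0.294 CPM in WT hypoxia. Nrp1, which encodes the co-receptor neuropilin-1, was lower in KO than in WT under hypoxia (-0.54 ± 0.09, adjusted p = 0.00236), with 22.7 ± 1.27 CPM in KO and 33 ± 1.29 CPM in WT. The sister ligands Vegfc, Vegfd and Pgf were not called in any comparison. Under normoxia no gene of this or the other related lists was called by edgeR in KO against WT, with 2, 2, 2 and 5 genes at an unadjusted p under 0.05 in the VEGF, adrenomedullin, stanniocalcin and other lists, and DESeq2 called Igf1, Igfbp4 and Il1a lower in KO.

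None of the 6 tested genes of the adrenomedullin and CGRP system was called by edgeR in any of the 5 comparisons, with 4 values at an unadjusted p under 0.05, and 3 more (Adm2, Calca and Ramp2) were too low to test. DESeq2 made 1 call in this list, Ramp1 lower in KO than in WT under hypoxia, where edgeR gave -0.45 ± 0.15 (adjusted p = 0.0695). Calcrl, which encodes the receptor that adrenomedullin shares with CGRP, had 22.3 ± 2.61 CPM in KO hypoxia, 21.4 ± 4.17 CPM in WT hypoxia, 18.3 ± 0.16 CPM in KO normoxia and 16.8 ± 2.46 CPM in WT normoxia. Ramp1, whose product turns that receptor toward CGRP, had 20.5 ± 3.03 CPM in KO hypoxia, 28 ± 1.06 CPM in WT hypoxia, 23.2 ± 0.637 CPM in KO normoxia and 31.9 ± 7.35 CPM in WT normoxia. Ramp2, the partner that turns it toward adrenomedullin, was among the genes too low to test.

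In the stanniocalcin and PAPP-A axis 4 of 8 genes were tested, and the proteases Pappa and Pappa2 were not, nor were Igfbp2 and Igfbp3. Of the 4, edgeR called 2 higher under hypoxia in KO, where 14.5% of all tested genes were called higher, and 1 in WT, where 11.4% were. DESeq2 called Stc1 and Igfbp4 higher in both genotypes. In KO against WT under hypoxia edgeR called 0 genes of this list, and DESeq2 called Igf1 and Igfbp4 lower in KO. Stc1, the paralog of Stc2, rose in KO (log2 2.39 ± 0.78, edgeR adjusted p = 0.0341), and its WT change was 1.80 ± 0.68 (adjusted p = 0.0663). Its mean level was 1.05 ± 0.459 CPM in KO hypoxia, 1.8 ± 0.289 CPM in WT hypoxia, 0.205 ± 0.331 CPM in KO normoxia and 0.513 ± 0.124 CPM in WT normoxia. Igfbp4, an IGF-binding protein that PAPP-A cleaves, rose by 0.94 ± 0.16 in KO and by 0.54 ± 0.16 in WT.

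Among 26 other secreted products named with hypoxia, 22 were tested, of which 2 were called higher and 4 lower under hypoxia in KO, and 4 higher and 5 lower in WT. Of all tested genes, 14.5% were called higher and 15.7% lower in KO, and 11.4% higher and 16.3% lower in WT. The counts of the list are therefore not read as a trait of these products. Mif, a cytokine that holds macrophages in place, had the same calls as Vegfa in all 5 comparisons. It rose by 0.93 ± 0.17 in KO and by 2.55 ± 0.18 in WT, was lower in KO under hypoxia (-1.93 ± 0.18, edgeR adjusted p = 0.000123), and had an interaction of -1.62 ± 0.25 (adjusted p = 0.0172), which was -1.77 to -1.48 when a library was left out and lost its call in 6 of these 12 fits. Its mean was 108 ± 17.1 CPM in KO hypoxia, 409 ± 93.9 CPM in WT hypoxia, 56.3 ± 5.35 CPM in KO normoxia and 69.7 ± 10.9 CPM in WT normoxia, and reads of Mif pseudogenes may be mixed in. Angptl4, an inhibitor of lipoprotein lipase, rose by 1.23 ± 0.28 in KO and by 0.84 ± 0.27 in WT. Edn1, which encodes the vessel-constricting peptide endothelin-1, and Fgf11 were not called by edgeR in KO (1.73 ± 0.65 and 1.05 ± 0.42) but were in WT (2.90 ± 0.74 and 2.03 ± 0.42). DESeq2 called both in WT and Fgf11 in KO too, and neither interaction passed the edgeR test (adjusted p = 0.783 and 0.642).

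The secreted products that fell did so in both genotypes, with the exception of Il1a, which encodes interleukin-1α and was not called in KO (-0.98 ± 0.51) but was in WT (-1.28 ± 0.45), with an interaction that did not pass the test (adjusted p = 0.935). Csf1, the growth factor of macrophages, fell by 1.72 ± 0.12 in KO and by 1.60 ± 0.12 in WT. Grn, which encodes progranulin, fell by 1.29 ± 0.08 in KO and by 1.13 ± 0.08 in WT, and was lower in KO than in WT under hypoxia (-0.43 ± 0.08, edgeR adjusted p = 0.00654). Tgfb3 fell by 1.39 ± 0.19 in KO and by 0.71 ± 0.19 in WT, and Nampt, an enzyme of NAD synthesis that is also secreted, by 0.96 ± 0.12 in KO and by 0.43 ± 0.12 in WT. In KO against WT under hypoxia DESeq2 called Il1a, Nampt and Tgfb3 lower too, beside Mif and Grn. Tgfb1, an abundant gene of the list that was not called in any comparison, had 463 ± 54.4 CPM in KO hypoxia and 470 ± 39.2 CPM in WT hypoxia, against 451 ± 28.1 CPM in KO normoxia and 470 ± 53.9 CPM in WT normoxia.

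**Figure D4:**
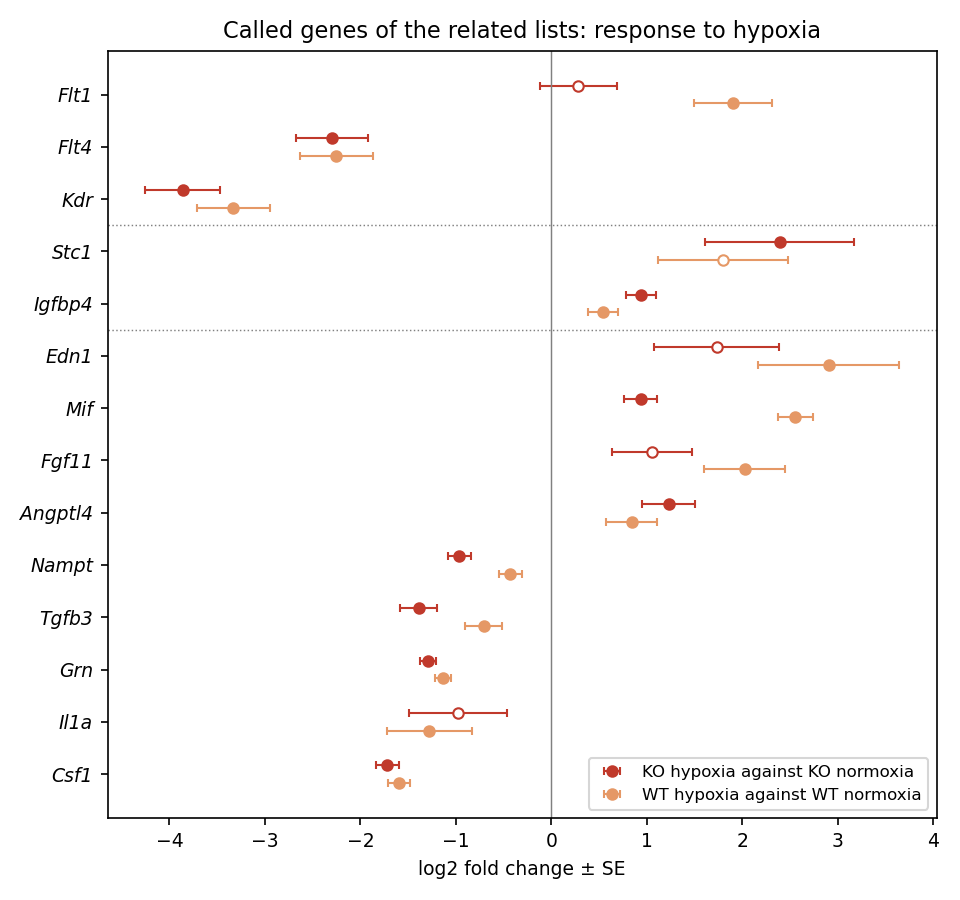
Log2 change under hypoxia (± SE) of the 14 related genes called in at least 1 genotype, KO above WT for each gene. Filled points were called, and dotted lines part the VEGF, stanniocalcin and other lists. Mif shows the wide gap between KO (0.93) and WT (2.55) that passed the interaction test.

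The genes whose levels ran most like each secreted factor across the 12 libraries differed between the factors. The measure was Pearson r of log2 CPM with a prior count of 2, over 11497 genes (11498 for Stc2), as a description in which all points share the 4 groups and the same libraries. For Vegfa they were Ero1l (r = 0.992), an oxidase of protein folding in the endoplasmic reticulum, the aminopeptidase gene Npepps (r = 0.990) and P4ha1 (r = 0.990), a subunit of collagen prolyl hydroxylase. For Vegfb they were Bbc3 (r = 0.984), which encodes the death factor PUMA, Ddah2 (r = 0.976) and Sspn (r = 0.976). For Adm they were the retinoic acid receptor gene Rara (r = 0.956), the mitochondrial channel gene Vdac1 (r = 0.947) and the repressor gene Bhlhe40 (r = 0.936). For Stc2 they were Fhad1 (r = 0.971), Cdc42ep4 (r = 0.965) and Nkx6-1 (r = 0.953).

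Under hypoxia all 3 neighbours of Vegfa were called lower in KO, Ero1l at -1.03 ± 0.21, Npepps at -0.32 ± 0.08 and P4ha1 at -1.51 ± 0.11, and P4ha1 also passed the interaction test (-1.19 ± 0.15, edgeR adjusted p = 0.00509). None of the neighbours of Vegfb was called in this comparison, and all 3 had positive values there, of 0.17 to 0.34. Since a high r across the 12 libraries fixes much of this pattern, it is given as a description. Among the secreted factors themselves, r ran from 0.592 between Stc2 and Vegfb to 0.808 between Adm and Vegfa.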

How the data were processed

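Per the labels, B cells of the bone marrow were sorted by MACS and total RNA went into Illumina TruSeq libraries. The authors deposited whole-number read counts per Ensembl gene for 12 libraries, not normalized. The submitters' processing notes name CASAVA, Bowtie 0.12.2 and mm10. How genes were counted, on which annotation and whether by strand is not given in the sources used here. Reads of near-identical or antisense genes therefore cannot be told apart. Symbols and coordinates came from GENCODE M21 on the same build (46488 identifiers had a symbol, 495 had none), and promoter sequences from RefSeq (GRCm38.p6). The genome itself and protein sequences were not used here.

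Counts were tested with edgeR 4.0.16 in R 4.3.3, with TMM scaling (factors 0.9689 to 1.039), its default filter on low counts, and a robust quasi-likelihood fit with 1 mean for each of the 4 groups, all 12 libraries included. The 29477 genes left out held 0.0738% of the counts. The biological coefficient of variation common to all genes was 0.164. No pair of libraries in a group matched within sampling noise (chi-square over degrees of freedom 11.1 to 79.1). The interval given for a low count covers counting error alone.

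The text names genes by a rule: the 4 secreted factors, called genes of 4 lists of related genes, tested genes of those lists with high mean CPM as values only, and for each factor the 3 genes with the highest Pearson r (mean CPM at least 1, no predicted models, pseudogenes or immunoglobulin segments). The members, lists and rule were chosen with earlier results of these data known. Replicate numbers come from the labels. Deviations from the group means correlated between WT libraries of the same number (r = 0.196, 0.360 and 0.434), which pairs them, but not in every pair between KO libraries (0.182, -0.039 and 0.120) or between genotypes. Alternatives were no filter, a filter at CPM 1 in 3 libraries, RLE size factors, TMM factors computed with immunoglobulin and mitochondrial genes left out, only the compared groups, a replicate block, DESeq2 1.42.0, Y-linked reads as a covariate, the 7 libraries that held Xist but no Y-linked reads, monocyte and neutrophil levels as covariates, and leaving out each library. A fit of only the compared groups with the block, and the alternatives for the Mif and P4ha1 interactions, were added after seeing the data.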

Additional observations from a re-analysis of the deposited data

Results flagged for a closer look

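Vegfa, Mif and P4ha1 stand here because the difference between the responses of the genotypes was itself tested, and passed in the fit of all 12 libraries. For Vegfa the KO response minus the WT response was -1.25 ± 0.19 (log2 ± SE, edgeR adjusted p = 0.0134), and the call was lost without KO hypoxia library 1 (-1.20, adjusted p = 0.0627), WT hypoxia library 1 (-1.13, adjusted p = 0.0537) or WT normoxia library 1 (-1.18, adjusted p = 0.0564). Each of the 3 KO hypoxia libraries (98.05 to 119.9 CPM) lay below each of the 3 WT hypoxia libraries (242.8 to 298.1 CPM). For Mif the value was -1.62 ± 0.25 (adjusted p = 0.0172), and the call was lost in 6 of the 12 fits that left out a library: without KO hypoxia library 1, WT hypoxia library 1 or 2, KO normoxia library 1 or 2, or WT normoxia library 1 (adjusted p up to 0.073). For P4ha1 it was -1.19 ± 0.15 (adjusted p = 0.00509), and -1.30 to -1.07 with a library left out, called each time (adjusted p up to 0.0275). P4ha1 was named for its high correlation with Vegfa over these same libraries, so its value is not separate evidence. With only the 7 libraries that held Xist but no Y-linked reads, the calls of all 3 genes were lost (Vegfa -0.77, Mif -1.35, P4ha1 -1.20). With 3 libraries in a group, single libraries were not tested as outliers.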

How the results depend on the processing

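Of 437 values of the secreted factors recomputed under alternatives, 397 kept their direction and their side of the threshold. The replicate block gives both genotypes the same term for a library number, although numbers did not pair between genotypes. It changed no call of the secreted factors: the Vegfa interaction was -1.27 with the block (adjusted p = 0.0124) and the Adm response in KO 0.53 (adjusted p = 0.0507). For the interaction this fit is therefore a weak check. The Stc2 response in WT was called with no filter (1.78), RLE size factors (1.80), TMM factors computed with immunoglobulin and mitochondrial genes left out (1.80), only the compared groups (1.78, and 1.78 with the replicate block added) and DESeq2 (1.81). With only the compared groups the calls of Adm in WT (0.71) and Stc2 in KO (2.29) were lost and Adm in KO was called (0.50). In the fit of the 7 libraries that held Xist but no Y-linked reads, the calls of Vegfb (0.85) and Adm (0.36) in WT, Stc2 in KO (2.42) and the Vegfa interaction (-0.77) were lost, and the signs of Vegfb in KO against WT under normoxia (0.18) and of the Adm interaction (0.14) turned. With Y-linked reads as a covariate the sign of Vegfb in KO against WT under normoxia turned (0.0397). With monocyte and neutrophil levels as covariates Stc2 in KO lost its call (2.29) and Vegfa in KO against WT under normoxia turned sign (0.0793). None of the values that turned sign was called.

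Leaving out each library in turn gave the following ranges. In the KO response Adm ran from 0.42 to 0.62 and Stc2 from 1.77 to 4.99. In the WT response Adm ran from 0.43 to 0.88 and Stc2 from 1.51 to 1.91. In KO against WT under hypoxia Adm ran from -0.66 to -0.22. In KO against WT under normoxia Vegfa ran from -0.18 to 0.13 (0.13 without WT normoxia library 3), Vegfb from -0.17 to 0.0577 (0.0577 without KO normoxia library 3 and 0.0337 without WT normoxia library 2) and Stc2 from -4.15 to -0.93. In the interaction Vegfa ran from -1.41 to -1.10 and Adm from -0.35 to 0.10 (0.10 without WT hypoxia library 1), Vegfb from 0.17 to 0.40, and Stc2 from 0.0136 to 3.24 (0.0136 without KO normoxia library 2, 3.24 without KO normoxia library 3). The calls and directions of Vegfa in the WT and KO responses and in KO against WT under hypoxia stood under every alternative run.

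Without length scaling the Vegfa to Vegfb ratio was 3.58 in KO hypoxia, 10.2 in WT hypoxia, 1.73 in KO normoxia and 1.76 in WT normoxia, by construction. Of the 3 genes most like Stc2, 2 stayed with a prior count of 0.5. The promoter matches all lie before the start. Stc2 gave no value with the filter at CPM 1, nor an adjusted p with DESeq2 in KO against WT under hypoxia and in the interaction.

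Over all genes, 4862 were called in the WT response, against 1070 with only the Xist libraries. KO against WT under hypoxia called 1723, against 1019 with the Y-linked covariate, 324 with the marker covariates, 30 with only the Xist libraries, and 672 to 2654 when a library was left out. KO against WT under normoxia called 4, against 40 with no filter, 94 with DESeq2, 0 with only the compared groups, 0 with the marker covariates, and 3 to 294 when a library was left out. The interaction called 73, against 194 with no filter, 295 with DESeq2, 112 with the Y-linked covariate, 48 with the marker covariates, 1 with only the Xist libraries, and 18 to 224 when a library was left out. The cause of these shifts was not tested. Depth limits Stc2, with at most 42 counts in a library.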
